A study of Homo sapiens with 4 samples.

Results

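Cells take up amino acids, sugars, monocarboxylates and fatty acids through carriers of the solute carrier (SLC) families, and the genes described here are those whose symbol begins with the name of 1 of 11 such families. The pattern covers the families SLC1A to SLC3A, SLC5A to SLC7A, SLC16A, SLC27A, SLC36A, SLC38A and SLC43A, read in the gene symbols that the annotation of the array gives to its probes. Only 4 genes matched, out of 14679 genes named by the annotation, and each had 1 probe among 38598. They were SLC2A1-DT, SLC2A4RG, SLC38A12 and SLC7A11-AS1. The plain name "nutrient transporters" does not describe them: 2 are long noncoding RNAs, 1 is a transcription factor, and SLC38A12 alone carries the symbol of a carrier. RefSeq holds 142 symbols of this pattern, 108 of them protein-coding, and of 46 carriers drawn up in 5 lists (hexose, lactate and pyruvate, neurotransmitter, osmolyte and ATF4-linked amino acid carriers) 0 had a named probe. The glucose carrier SLC2A1, the lactate carriers SLC16A1 and SLC16A3 and the amino acid carriers SLC1A5, SLC3A2, SLC7A5, SLC7A11 and SLC38A2 were therefore not analysed here, and neither were the fatty acid carriers of SLC27A.

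The samples were T47D cells, an established human ER+ breast cancer line grown in RPMI-1640 with serum, infected with virus carrying FDXR sh434, a hairpin against ferredoxin reductase (FDXR), or with shControl. The sources call the virus a lentivirus in one place and a retrovirus in another, and the control a vector in one and a hairpin in another. There were 2 arrays per condition, labelled biological replicates without saying whether cultures were infected separately, so p-values measure only the spread between these arrays. FDXR sh434 is 1 hairpin, and no probe is named FDXR in the annotation. Apart from the arrays, the study assayed FDXR by Q-PCR and immunoblot in T47D cells with this hairpin. The source names of 3 arrays read T48D, T49D and T50D where the growth protocol has T47D. Median log2 signals were 4.76 and 4.77 on the FDXR sh434 arrays and 4.76 and 4.78 on the shControl arrays. Of 9 markers of luminal ER+ epithelium 7 had a named probe, with log2 signals between 7.26 and 11.22 in FDXR sh434 cells and between 7.54 and 11.45 in shControl cells. Of 8 markers of other cell types 6 had one, with log2 signals between 3.22 and 6.78 in FDXR sh434 cells and between 2.78 and 6.49 in shControl cells.

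Facilitative carriers of the SLC2A family let glucose run down its gradient, with SLC2A1 (GLUT1) serving most tissues and SLC2A4 (GLUT4) answering to insulin in muscle and fat. SLC7A11 exchanges glutamate for cystine and so feeds glutathione synthesis. Carriers of the SLC38A family move small neutral amino acids such as glutamine, and how much of any of them lies in the plasma membrane is set by traffic as well as by mRNA. The 4 genes stand at different distances from this machinery. SLC2A4RG encodes a transcription factor that binds the promoter of the GLUT4 gene. SLC2A1-DT is a long noncoding RNA divergent from SLC2A1, and SLC7A11-AS1 is one named as antisense to SLC7A11. SLC38A12, formerly TMEM104, was placed in the SLC38A family by its name, and what it carries is not stated in the sources used here.

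Taken from gene start to gene end in RefSeq, introns included, SLC7A11-AS1 overlaps SLC7A11 over 14081 bases, whereas SLC2A1-DT and SLC2A1 do not overlap and lie 180 bases apart. Whether exons of SLC7A11-AS1 and SLC7A11 overlap was not examined. Which strand the probe of SLC7A11-AS1 reads is unstated in the sources used, so RNA of the antisense gene and of SLC7A11 cannot be told apart by name alone. RefSeq promoter windows, 250 bases before to 50 after each gene start in GRCh38.p14, matched 3 of the 4 genes. They are shown because they place each measured transcript. The window of SLC2A1-DT also shares 280 of its 300 bases, read from the other strand, with that of the glucose carrier SLC2A1. SLC2A1 itself had no named probe. All 3 lie on the plus strand, at chr1:42958799-42959098 for SLC2A1-DT, chr20:63739526-63739825 for SLC2A4RG and chr17:74776249-74776548 for SLC38A12. Capitals mark GC boxes, GGGCGG on either strand.
SLC2A1-DT: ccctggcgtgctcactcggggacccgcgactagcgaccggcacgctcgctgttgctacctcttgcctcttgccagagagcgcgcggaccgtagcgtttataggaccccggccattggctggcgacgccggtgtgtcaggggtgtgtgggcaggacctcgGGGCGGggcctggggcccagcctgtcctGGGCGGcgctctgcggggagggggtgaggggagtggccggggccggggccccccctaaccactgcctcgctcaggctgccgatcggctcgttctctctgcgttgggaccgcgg
SLC2A4RG: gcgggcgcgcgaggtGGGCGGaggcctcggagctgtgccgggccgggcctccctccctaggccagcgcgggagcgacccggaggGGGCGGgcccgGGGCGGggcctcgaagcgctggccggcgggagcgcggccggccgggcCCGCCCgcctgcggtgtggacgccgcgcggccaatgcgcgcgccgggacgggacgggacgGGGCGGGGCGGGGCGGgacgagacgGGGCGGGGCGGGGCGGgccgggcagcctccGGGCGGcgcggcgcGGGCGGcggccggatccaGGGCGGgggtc
SLC38A12: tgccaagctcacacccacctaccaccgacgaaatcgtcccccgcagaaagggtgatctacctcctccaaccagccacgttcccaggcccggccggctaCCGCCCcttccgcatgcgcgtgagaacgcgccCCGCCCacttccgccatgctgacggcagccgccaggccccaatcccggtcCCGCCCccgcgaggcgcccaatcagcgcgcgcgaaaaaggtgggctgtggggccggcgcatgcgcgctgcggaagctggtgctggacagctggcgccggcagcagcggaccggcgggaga

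The windows are rich in G and C, at 72.3% for SLC2A1-DT, 87% for SLC2A4RG and 71.3% for SLC38A12. GC boxes occur 13 times, a few of them sharing a base, in the window of SLC2A4RG, 3 times in that of SLC38A12 and 2 times in that of SLC2A1-DT, and 45% of all 35116 RefSeq windows of the same length hold at least 1. The CCAAT box (CCAAT on either strand, 34.6% of windows) occurs in all 3, with 2 matches for SLC38A12 and 1 for each of the others. A match to the TATA box (TATAAA on either strand, 11.5% of windows) is found only in the window of SLC2A1-DT. The letters there are tttata, so TATAAA is read from the other strand. That is the strand of the SLC2A1 window, and the match does not run in the direction of SLC2A1-DT. Neither the E-box CACGTG (7.26% of windows) nor the C/EBP-ATF element TGATGNAA (3.62% of windows), both searched on either strand, is among the letters of the 3 windows.

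FDXR sh434 cells were compared with shControl cells to see whether the hairpin against FDXR altered the RNA of these genes. By limma, with p-values adjusted over the 38598 probes and a threshold of 0.05, 0 of the 4 genes were higher and 0 were lower, where 0.298% of all probes were higher and 0.402% lower. Without adjustment the counts were likewise 0 and 0, where 9.44% and 7.82% of all probes passed, and the lowest adjusted p was 0.439. When limma let the spread between arrays follow the signal, with robust estimation (the signal-dependent spread), 0 passed upwards and 0 downwards after adjustment, against 5.02% and 3.41% of all probes, and 0 were higher and 1 lower before it, against 11.7% and 8.63%. The log2 fold change was negative for 3 genes and positive for 1, with a median of -0.11 beside 0.004 over all probes and 0.029 over all named genes. For 2 genes both FDXR sh434 arrays lay below both shControl arrays and for 0 genes both lay above, where this held for 23.1% and 25.6% of all probes.

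**Figure D1:**
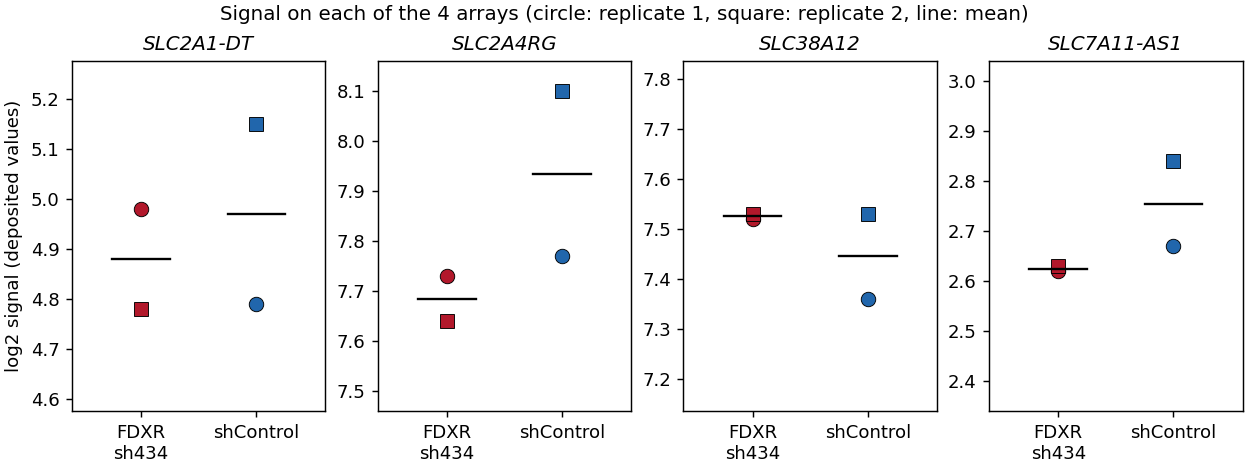
Deposited log2 signal of the 4 genes (vertical axis, a span of equal height in every panel but centred on each gene) on the FDXR sh434 arrays (red) and shControl arrays (blue), with circles for replicate 1, squares for replicate 2 and a line at the mean of 2 arrays. The shControl arrays lie 0.16 to 0.37 apart, and only SLC2A4RG and SLC7A11-AS1 have both FDXR sh434 arrays below both shControl arrays.

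SLC2A4RG, the GLUT4 enhancer factor, had the largest difference of the 4. Its log2 signal was 7.73 and 7.64 in FDXR sh434 cells, against 7.77 and 8.10 in shControl cells. The conditions did not overlap, but the shControl arrays lay 0.33 apart, further than the 0.25 between the means, and the FDXR sh434 arrays 0.08 apart. The means were 7.68 ± 0.0581 in FDXR sh434 cells and 7.94 ± 0.231 in shControl cells (SD, n = 2 each). The log2 fold change was -0.25 (standard error 0.143, 95% interval -0.61 to 0.11), 1.19-fold lower in FDXR sh434 cells, with an adjusted p = 0.439 from limma. The interval covers no change as well as a fall by 0.61 on the log2 scale. With the signal-dependent spread it ran from -0.49 to -0.01, with an unadjusted p = 0.0438 and an adjusted p = 0.227 from limma. The size turned on the shControl arrays: the log2 fold change was -0.41 without shControl replicate 1 and -0.09 without shControl replicate 2. Without shControl replicate 1 and with the signal-dependent spread SLC2A4RG was lower at an adjusted p = 0.0105 from limma, while over its 16 alternatives the adjusted p ranged from 0.0105 to 0.756 and passed in 1.

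SLC38A12 was the 1 gene with a carrier's symbol. Its log2 signal was 7.52 and 7.53 in FDXR sh434 cells, against 7.36 and 7.53 in shControl cells. The FDXR sh434 arrays were nearly equal to each other and to shControl replicate 2, and shControl replicate 1 was the lower array. The means were 7.52 ± 0.00991 in FDXR sh434 cells and 7.45 ± 0.123 in shControl cells (SD, n = 2 each). The log2 fold change was 0.08 (standard error 0.113, adjusted p = 0.777 from limma), and the 95% interval of -0.21 to 0.36 leaves room for a change of up to 0.36 on the log2 scale upwards. Without shControl replicate 1 the sign turned, at -0.01, and without shControl replicate 2 the value was 0.16. Quantile normalization brought it to 0.01.

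SLC2A1-DT, the divergent transcript beside the GLUT1 gene, had log2 signals of 4.98 and 4.78 in FDXR sh434 cells, against 4.79 and 5.15 in shControl cells. The conditions overlapped, with the highest and the second lowest of the 4 values both on shControl arrays. The means were 4.88 ± 0.137 in FDXR sh434 cells and 4.97 ± 0.259 in shControl cells (SD, n = 2 each). The log2 fold change was -0.09 (standard error 0.16, 95% interval -0.49 to 0.31, adjusted p = 0.822 from limma). It was -0.27 without shControl replicate 1 and 0.09 without shControl replicate 2, so its direction rests on single arrays. Without FDXR sh434 replicate 2 it was 0.01.

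SLC7A11-AS1, the antisense RNA at the cystine carrier gene, had log2 signals of 2.62 and 2.63 in FDXR sh434 cells, against 2.67 and 2.84 in shControl cells. Both FDXR sh434 arrays were below both shControl arrays, which lay 0.16 apart, further than the 0.13 between the means. Its mean signal was the only one of the 4 under the median signal of all probes, 4.76, and signal over background is not known for these values. The means were 2.62 ± 0.0103 in FDXR sh434 cells and 2.76 ± 0.114 in shControl cells (SD, n = 2 each). The log2 fold change was -0.13 (standard error 0.112, 95% interval -0.41 to 0.15, adjusted p = 0.608 from limma). With the signal-dependent spread the interval widened to -0.52 to 0.25. Without shControl replicate 1 the value was -0.21, and without shControl replicate 2 it was -0.05.

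Across the 4 genes, shControl replicate 2 was the higher shControl array every time, by 0.37 for SLC2A1-DT, 0.33 for SLC2A4RG, 0.17 for SLC38A12 and 0.16 for SLC7A11-AS1. The FDXR sh434 arrays lay 0.19, 0.08, 0.01 and 0.01 apart for the same genes. Leaving out shControl replicate 1 therefore moved all 4 values downwards and leaving out shControl replicate 2 moved all 4 upwards, which took the median log2 fold change of the 4 to -0.24 and to 0.02.

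**Figure D2:**
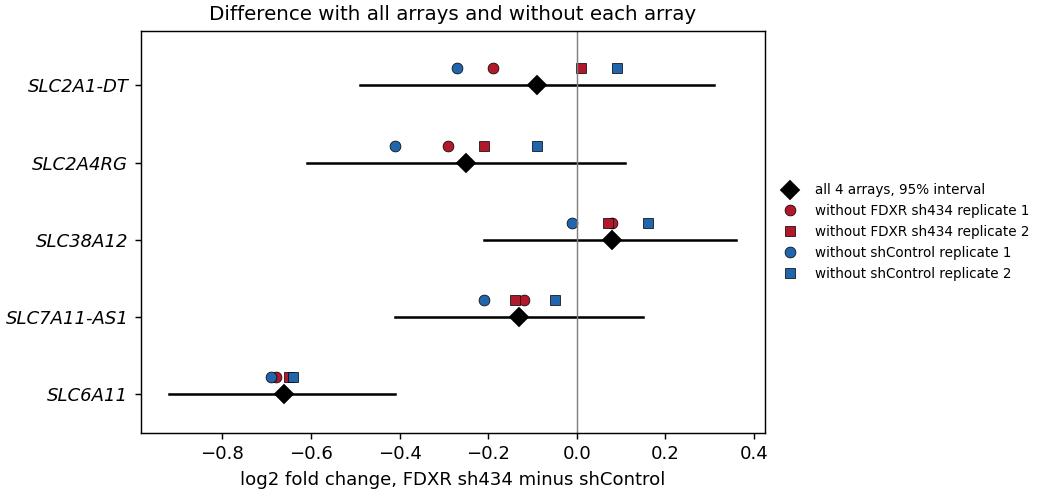
Log2 fold change, FDXR sh434 minus shControl, of the 4 genes and of SLC6A11 (rows) on the horizontal axis, with diamonds for all 4 arrays, bars for the 95% interval of limma, and points for the value without each array in turn. The intervals of the 4 genes all cover 0, while that of SLC6A11, a gene the study chose on these arrays, runs from -0.92 to -0.41.

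The study's table of metabolism genes lower under FDXR sh434 names 1 carrier of the 11 families: SLC6A11, a carrier of the neurotransmitter GABA. The annotation does not name it, and no other table of the study was searched. The log2 signal of its probe was 4.86 and 4.84 in FDXR sh434 cells, against 5.49 and 5.54 in shControl cells. The arrays of each condition lay within 0.05 of each other and the conditions did not overlap. The log2 fold change was -0.66 (standard error 0.102, 95% interval -0.92 to -0.41, adjusted p = 0.064 from limma). In that fit it thus missed 0.05, the adjusted p threshold that the study states for limma. With the signal-dependent spread the adjusted p from limma was 0.0117, within a range of 0.0085 to 0.369 over its 15 alternatives. The study chose this gene on the same arrays for being lower, so its direction is not independent evidence and it is not counted with the 4.

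Genes listed as working with nutrient carriers were counted in 5 further lists, of which 65 of 106 genes had a named probe. These lists were drawn up with results of these arrays known. By limma 0 passed upwards and 0 downwards after adjustment, 7 and 11 did before it, where 9.44% and 7.82% of all probes did, and with the signal-dependent spread 5 were higher and 8 lower, against 5.02% and 3.41% of all probes. These counts were 1 (CD44) and 2 (PDZK1 and PSAT1) without FDXR sh434 replicate 1, where 0.762% and 0.899% of all probes passed, and 1 (DDIT4) and 1 (PDZK1) without FDXR sh434 replicate 2, where 0.899% and 0.943% did. Of 11 genes listed as chaperones and partners of carriers, 1 was higher and 3 lower with that spread. The hyaluronan receptor CD44 was higher, at a log2 fold change of 0.63. Lower were the scaffold PDZK1 at -0.89, the lysosomal membrane protein GPR137B at -0.51 and basigin (BSG), the chaperone of the lactate carriers, at -0.41. GPR137B stands in this list from memory, and no carrier that it works with is named here. Of 11 regulators of carrier traffic, 0 were higher and 3 lower: the kinase SGK1 at -0.85, and the arrestins TXNIP, which removes GLUT1 from the membrane, at -0.45 and ARRDC3 at -0.24. Of 19 nutrient sensors and transcription factors, 2 were higher and 0 lower: DDIT4, an inhibitor of mTORC1, at 0.63 and MLXIP, a glucose-responsive factor, at 0.46. SGK1 was the 1 called gene under the median signal of all probes, with means of 3.69 in FDXR sh434 cells and 4.53 in shControl cells, and without shControl replicate 2 its adjusted p was 0.0646 from limma with that spread. Of 9 genes listed as first enzymes of glucose use, lactate dehydrogenases included, only hexokinase 2 (HK2) passed, at 0.43. The list of first enzymes of amino acid use had 15 measured genes and also holds enzymes that make amino acids. Of these 15, glutamine synthetase (GLUL) was higher at 0.38, and the serine synthesis enzymes PSAT1 and PHGDH were lower at -0.71 and -0.33. ARRDC3 and PHGDH passed narrowly with that spread, at an adjusted p = 0.0469 and 0.0453 from limma. Without the trend and with dim probes left out, neither passed (adjusted p = 0.122 and 0.0562 from limma). Among the brightest that did not pass were ATF4 at 0.14, TFE3 at 0.07, ARL6IP5 at 0.16, WNK1 at -0.16, GPI at 0.08, HK1 at -0.06 and ODC1 at -0.27. Of the 65 genes, 51 lay at or above the median signal of all probes, so shares over all probes include many dimmer ones. With only the brighter probes tested, without the trend, 5 of the 51 were higher and 6 lower. Among all the brighter probes 8.01% and 5.16% were.

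**Figure D3:**
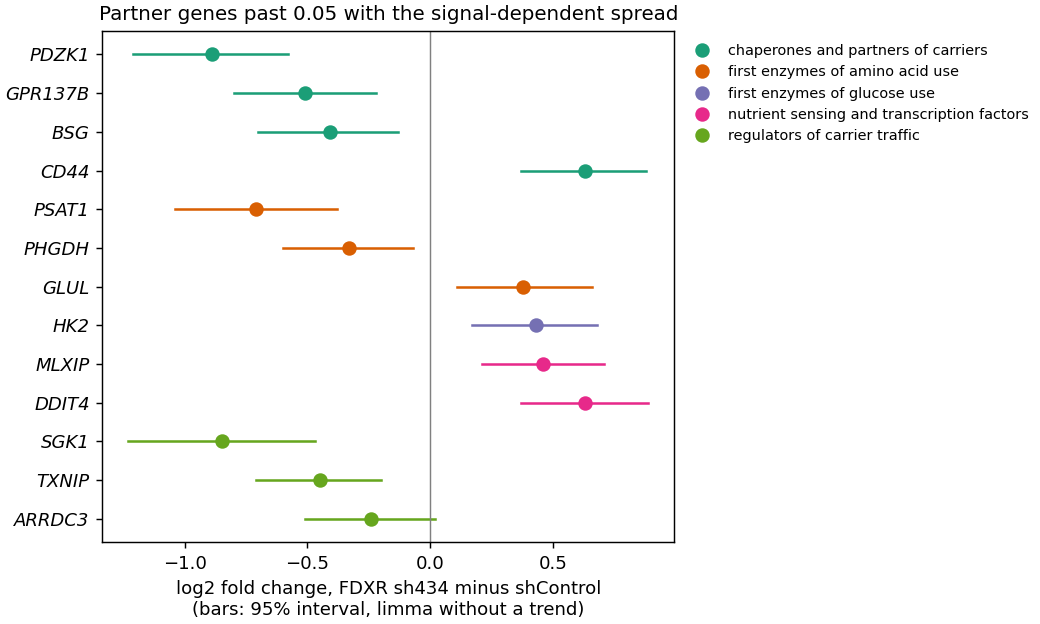
Log2 fold change, FDXR sh434 minus shControl, on the horizontal axis of the 13 partner genes (rows, coloured by list) that passed an adjusted p of 0.05 with the signal-dependent spread, with bars for the 95% interval of limma without a trend. PDZK1 and the dim SGK1 lie lowest, at -0.89 and -0.85, CD44 and DDIT4 highest, at 0.63, and none of the 13 passed without the trend in the fit over all 38598 probes.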

How the data were processed

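The authors deposited log2 signals of 4 Affymetrix arrays, already on 1 scale. The sources used here do not say how probes were summarised or normalized; limma 3.50.3 is the tool named in the submitters' notes. Probes were named through the array's annotation, which gives 15715 probes 1 symbol and 22883 none, and a gene was represented by its brightest probe. The probe of SLC6A11 was named through the study's table. Deposited values were tested with limma 3.58.1 (R 4.3.3; lmFit, eBayes, no trend, no filter, condition as the only term), with Benjamini-Hochberg adjustment over 38598 probes. The fit had 2 residual and 3.45 prior degrees of freedom. The signal-dependent spread (intensity trend and robust estimation, statmod 1.5.0) was an alternative, because the median residual SD was 0.162 among the dimmest 25% of probes and 0.0728 among the brightest 25%. Other alternatives were the replicate block, quantile normalization, median centring, dim or unnamed probes left out, the mean over probes, and each array left out.

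The pattern and lists were chosen with earlier results of these data known. The lists were written from memory. The rule named every member past either fit, the 2 brightest of each family and a fixed set of carriers, and of each partner list the genes past either fit and the 2 brightest. It takes all 4 members. After the data were seen, 2 aliases were removed from the lists so that no gene counted again. Scripts were tested on simulated data. No scanner values were used, and precision is limited by the number of arrays. Motifs and figures were made with Python 3.11.15 and matplotlib 3.10.9.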

Additional observations from a re-analysis of the deposited data

How the results depend on the processing

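None of the 4 genes passed in either direction by limma with all arrays, under the signal-dependent spread, the replicate block, quantile normalization, median centring, unnamed probes left out, dim probes left out (SLC7A11-AS1 was then not tested), or the mean over probes, which could not change genes with 1 probe. Without shControl replicate 1 and with the signal-dependent spread 1 was lower, SLC2A4RG. Over all probes, arrays with the same replicate number showed no shared shift (correlation of deviations 0.00196). This single value cannot tell whether they were prepared in pairs. With the replicate block SLC2A4RG stayed at -0.25 (adjusted p = 0.467 from limma) and 0 members passed. SLC2A1-DT ranged from -0.27 to 0.09 without single arrays, and with the signal-dependent spread it turned positive without shControl replicate 2 (0.09) and FDXR sh434 replicate 2 (0.01). SLC38A12 ranged from -0.01 to 0.16 and TFE3 from -0.03 to 0.17, both negative only without shControl replicate 1, with either spread.

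The partner genes, for which all alternatives were chosen after seeing the data, gave 0 higher and 0 lower by limma without the trend over all probes, with the replicate block, and without any 1 array; with the block or without 1 array, 0 of all probes passed. They gave 5 and 8 of 65 with the signal-dependent spread (5.02% and 3.41% of all probes tested), and 5 and 9 with the replicate block added (5.72% and 3.93%). Without the trend they gave 5 and 6 of 51 when dim probes, SGK1 among them, were left out (8.01% and 5.16%), and 2 and 3 of 65 among named probes (2.48% and 1.89%). With the signal-dependent spread the counts were 6 and 7 without shControl replicate 1 (6.39% and 3.75% of all probes), 7 and 8 without shControl replicate 2 (5.59% and 4.29%), 1 and 2 without FDXR sh434 replicate 1 (0.762% and 0.899%), and 1 and 1 without FDXR sh434 replicate 2 (0.899% and 0.943%). The cause was not tested. Where an array was left out, the lone array of its condition was assumed to vary like the other condition. Having 2 arrays per condition and an unknown background limits all of these values.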
